A study of Rattus norvegicus with 36 samples.

Results

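The immediate early genes described here are 10 listed genes, *Fos*, *Fosb*, *Junb*, *Jun*, *Egr1*, *Egr2*, *Atf3*, *Ier2*, *Nr4a1* and *Dusp1*, measured in tissue labelled thyroid from 36 male Sprague Dawley rats 24 h after an intravenous injection. Members were found by matching the accession of each non-control probe of the array to a gene, and 9 of the 10 genes had a probe, 1 each, among 15154 genes with a probe and 30367 non-control probes in all. *Fosb* had no matched probe and was not analysed here. The rats formed 9 groups of 4, which received iodine-131 in saline at 9 or 88 kBq, at 170, 260 or 340 kBq, at 760 or 1300 kBq, or at 4700 kBq, or were mock-treated (controls), and each thyroid was hybridized to its own 1-colour Agilent array. Every rat, controls included, was under pentobarbital when it was killed. The groups were injected in rising order of activity and the controls last, so that activity and order of injection cannot be told apart.

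Immediate early genes are transcribed within minutes of a stimulus, from factors that are already present in the cell, and their transcripts are short-lived. *Fos*, *Fosb*, *Jun* and *Junb* encode subunits of the AP-1 transcription factor, *Egr1* and *Egr2* zinc finger factors, *Atf3* a stress-induced factor of the ATF/CREB family, *Nr4a1* an orphan nuclear receptor, *Ier2* a small nuclear protein, and *Dusp1* a phosphatase that inactivates MAP kinases. As a class they respond to growth factors, stress and tissue handling. No label gives the time of death or the handling of a single rat, and their part in the values below was not tested.

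The promoters of these genes are known for cAMP response elements and serum response elements. Promoter windows from RefSeq (GRCr8) were used for 6 of the 9 measured members, *Junb*, *Egr1*, *Egr2*, *Ier2*, *Nr4a1* and *Dusp1*. The 250 bases before the start are shown for the pairs *Nr4a1* and *Dusp1*, and *Junb* and *Ier2*, since these were the pairs that varied together most closely between rats. Capitals mark each TGACG on either strand, the core of the cAMP response element. The windows are chr7:134259888-134260137 for *Nr4a1* (an internal start of the gene), chr10:17184603-17184852 for *Dusp1*, chr19:40080876-40081125 for *Junb* and chr19:40399123-40399372 for *Ier2*, all on the plus strand.
Nr4a1: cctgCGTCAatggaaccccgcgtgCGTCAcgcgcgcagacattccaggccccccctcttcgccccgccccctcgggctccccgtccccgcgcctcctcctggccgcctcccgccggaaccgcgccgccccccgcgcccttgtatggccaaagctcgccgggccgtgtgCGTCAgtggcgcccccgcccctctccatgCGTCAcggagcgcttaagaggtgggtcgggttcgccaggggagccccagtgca
Dusp1: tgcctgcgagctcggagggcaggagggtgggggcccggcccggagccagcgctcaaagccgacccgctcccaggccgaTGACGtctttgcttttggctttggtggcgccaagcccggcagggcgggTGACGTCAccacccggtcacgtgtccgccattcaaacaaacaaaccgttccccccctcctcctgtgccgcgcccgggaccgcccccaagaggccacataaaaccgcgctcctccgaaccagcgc
Junb: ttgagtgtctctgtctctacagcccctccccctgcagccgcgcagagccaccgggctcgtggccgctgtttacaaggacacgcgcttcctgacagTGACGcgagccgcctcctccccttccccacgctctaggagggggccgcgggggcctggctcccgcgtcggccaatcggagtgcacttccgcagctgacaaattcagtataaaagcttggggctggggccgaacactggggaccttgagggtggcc
Ier2: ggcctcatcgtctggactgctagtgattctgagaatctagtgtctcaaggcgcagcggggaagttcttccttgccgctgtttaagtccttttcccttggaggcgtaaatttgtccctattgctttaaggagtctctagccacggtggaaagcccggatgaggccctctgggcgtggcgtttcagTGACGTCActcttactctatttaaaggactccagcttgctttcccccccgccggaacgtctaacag

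TGACG was found 4 times before *Nr4a1*, 3 times before *Dusp1*, 2 times before *Ier2* and *Egr1*, and 1 time before *Junb* and *Egr2*, and at least once in 18.2% of 33469 rat promoter windows of the same length. The full palindrome TGACGTCA, which holds TGACG on both strands, was present before *Dusp1* and *Ier2*, and in 1.59% of all windows. The CArG box, the core of the serum response element, was found 2 times before *Egr1* and 1 time before *Egr2*, and in 1.5% of all windows. These are matches of letters and not measured sites.

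The levels below are log2 intensities relative to the 75th percentile of the array, with spots of a probe averaged. That percentile ranged from 1564.1 to 4287.7 before logarithms were taken, no spot was saturated, and between 62.6% and 91% of the features were well above background by the scanner software's call. Of the 9 members, 8 were well above background on all 36 arrays and *Egr2* on 35. A level can be compared between rats, and not between probes. The labels number the animals within a group, and each value is from 1 rat.

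The tissue label was checked against thyrocyte markers before the members were compared. *Tg*, which encodes thyroglobulin and is 1 of the 11 listed thyrocyte genes, lay between 6.2 and 7.48 on 21 arrays and between -4.51 and 4.13 on the other 15. The summed level of the 11 genes was likewise between -1.08 and 4.27 on these 15 arrays, against at least 6.30 on the others. Between 6 and 10 of the 11 genes were well above background on these 15 arrays, against at least 10 on the others. The thyrocyte markers were thus low on 15 of 36 arrays, and went against the thyroid label there to differing degrees. *Tg* was at -4.51 in rat 1 at 9 kBq, but at 4.13 in rat 3 at 170 kBq, where 10 of the 11 genes were well above background. How much thyroid tissue the 15 samples held is not given in the sources used here. Every level, ratio and correlation that includes them therefore applies to tissue as labelled. The low arrays were spread over every group, with 3 of 4 at 9 kBq and at 340 kBq, 2 of 4 at 170 kBq and 1300 kBq, and 1 of 4 in each of the other groups, controls included. The summed level of the 9 fast muscle genes was between 0.37 and 11.38, with a median of 10.17, and all 9 of these genes were well above background on every array. In a whole tissue, fewer cells of a type and less RNA per cell cannot be told apart. *Fos*, *Jun*, *Nr4a1* and *Dusp1* were higher on average on the 15 arrays with low *Tg* than on the 21 others, by 1.08, 0.63, 1.15 and 0.61 log2 units, as was *Atf3* by 0.60, *Egr2* by 0.46, *Egr1* by 0.31 and *Junb* by 0.28, while *Ier2* was lower, with a difference of -0.12. These samples were separated by their own *Tg* level and not by the labels, and no test was made between them.

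*Fos* ranged over 4.85 log2 units between the 36 samples, from -4.77 in a 9 kBq rat to 0.08 in a 260 kBq rat whose *Tg* was low (3.07), a 28.8-fold span. The controls were at -2.14, -2.13, -2.80 and -4.47, and the 260 kBq rats at -3.89, -3.42, -3.50 and 0.08. A single rat thus stood far above its 3 group mates, while the controls themselves spanned more than 2 log2 units. *Nr4a1* ranged from -0.79 to 3.75, a 23.4-fold span. *Egr1* ranged from -3.51 to 0.87 and *Atf3* from -2.67 to 1.40, spans of 20.9-fold and 16.8-fold. *Ier2*, from 0.74 to 2.52, had the narrowest range, a 3.44-fold span. The highest *Nr4a1*, the lowest *Egr1* and the lowest *Ier2* all came from rat 1 at 1300 kBq, whose *Tg* was low (-2.83). Its array had the smallest share of features well above background of all 36, 62.6%.

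The spread between rats of the same group differed between the members. The SD between rats was 1.22 for *Fos*, larger than that of 86.1% of all features, 1.13 for *Nr4a1*, 1.07 for *Atf3*, 1.02 for *Egr2* and 0.94 for *Egr1*. *Junb* with 0.64, *Dusp1* with 0.59, *Jun* with 0.55 and *Ier2* with 0.38 lay below the median SD of all features, 0.67. The median SD of the 9 members was 0.94. Of the 9 members, all but *Egr2* were well above background on all 36 arrays, and against the median SD of the 16669 such features, 0.50, only *Ier2* lay below.

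**Figure D1:**
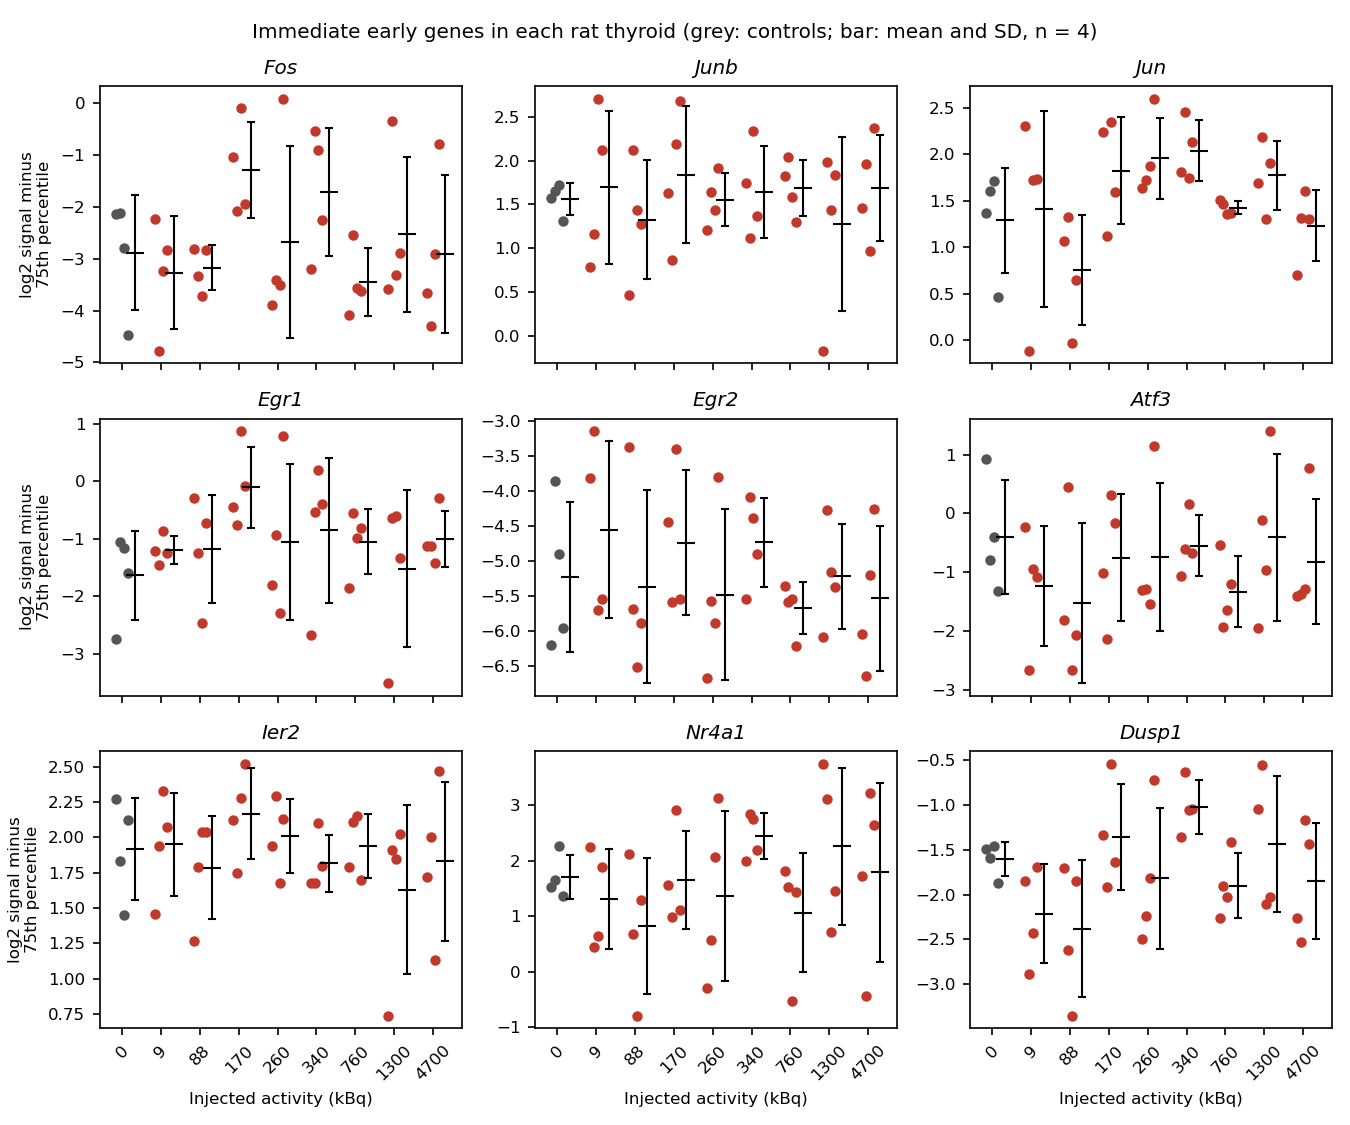
Log2 signal relative to the 75th percentile of the array (vertical axes, own scale for each gene) against injected activity in kBq for the 9 measured members. Each point is 1 rat (grey, controls at 0 kBq; red, irradiated), and bars give the mean and SD of 4 rats. *Fos* spans 4.85 log2 units over all rats, and rats of a group are often as far apart as rats of different groups.

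To find whether immediate early genes differed after iodine-131, the 8 irradiated groups were set against the controls 1 by 1. No member passed the limits of adjusted p-value and fold change used in the study, 0.01 and 1.5, in any of the 8 comparisons with limma's moderated test (Benjamini-Hochberg within each comparison over all features), and 0% of the 30367 features did. With the same limits in other software, Nexus Expression, the paper reported regulated transcripts in every irradiated group. The 0% thus belongs to the limma fit and not to the limits alone. At an unadjusted p-value under 0.05, 1 member passed in 1 comparison, *Egr1* at 170 kBq. The share of all features under that limit was 3.22% at 9 kBq, 3.36% at 88 kBq, 2.36% at 170 kBq, 1.12% at 260 kBq, 13.7% at 340 kBq, 1.64% at 760 kBq, 4.18% at 1300 kBq and 1.66% at 4700 kBq.

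*Egr1*, which encodes a factor induced by growth signals and stress, was at -0.44, -0.76, 0.87 and -0.08 in the 170 kBq rats and at -2.74, -1.05, -1.16 and -1.60 in the controls. All 4 irradiated rats lay above all controls. The log2 ratio was 1.53 (SE 0.64, 95% interval 0.22 to 2.85), and the adjusted p-value in limma was 0.996. *Fos* at 170 kBq was at -1.04, -2.09, -0.10 and -1.95 and likewise did not overlap with the controls. Its log2 ratio was 1.59 (SE 0.83, limma adjusted p = 0.996). Over the 21 arrays with high *Tg*, which left 2 rats at 170 kBq and 3 controls, the ratios were 1.20 for *Egr1* and 1.35 for *Fos*.

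At 340 kBq, *Jun* was at 1.81, 2.46, 1.75 and 2.13 in the irradiated rats and at 1.37, 1.61, 1.71 and 0.47 in the controls. *Dusp1* was at -1.36, -0.63, -1.06 and -1.04, against -1.49, -1.59, -1.46 and -1.87 in the controls. For these genes too the groups did not overlap, with log2 ratios of 0.75 (SE 0.39, limma adjusted p = 0.402) for *Jun* and 0.58 (SE 0.41, limma adjusted p = 0.54) for *Dusp1*. Of the 4 rats at 340 kBq, 3 had low *Tg*, and both genes were higher on average on the arrays with low *Tg*. The rat with high *Tg* against the 3 controls with high *Tg* gave ratios of 0.98 for *Jun* (SE 0.52, limma adjusted p = 0.316) and 0.60 for *Dusp1* (SE 0.58, limma adjusted p = 0.812), where this lone rat is assumed to vary like those of the other groups. Its array stood apart from the rest, with 91.0% of features well above background, against at most 79.0% on any other array, and the lowest array weight of all 36, 0.264. The array of rat 1 at 340 kBq, with low *Tg*, also stood apart. It had the lowest 75th percentile of all 36, 1564.1, and the most outlier spots, 1365, against at most 623 on any other array. The median log2 ratio of all features at 340 kBq was 0.31, more than in any other comparison, and that of the 9 members was 0.58.

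Members without overlap between the groups were thus 2 of 9 at 170 kBq, against 1.24% of all features, 2 of 9 at 340 kBq, against 4.33%, and none in the other groups. There the share of all features was 1.73% at 9 kBq, 1.86% at 88 kBq, 1.07% at 260 kBq, 1.63% at 760 kBq, 1.26% at 1300 kBq and 1.27% at 4700 kBq. The other log2 ratios of at least 1 in size, a limit set after the values were seen, were 1.16 for *Fos* at 340 kBq (limma adjusted p = 0.541) and -1.13 for *Atf3* at 88 kBq (limma adjusted p = 1). Over the arrays with high *Tg*, these ratios were 0.66 for *Fos*, with 1 rat against 3, and -1.78 for *Atf3*, with 3 against 3. Of the 8 irradiated groups, the highest mean of *Fos*, *Junb*, *Egr1* and *Ier2* was at 170 kBq, and that of *Jun*, *Nr4a1* and *Dusp1* at 340 kBq. The median ratio of the members was -0.30 at 88 kBq and at 760 kBq, and between -0.06 and 0.28 in the other groups apart from 340 kBq.

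**Figure D2:**
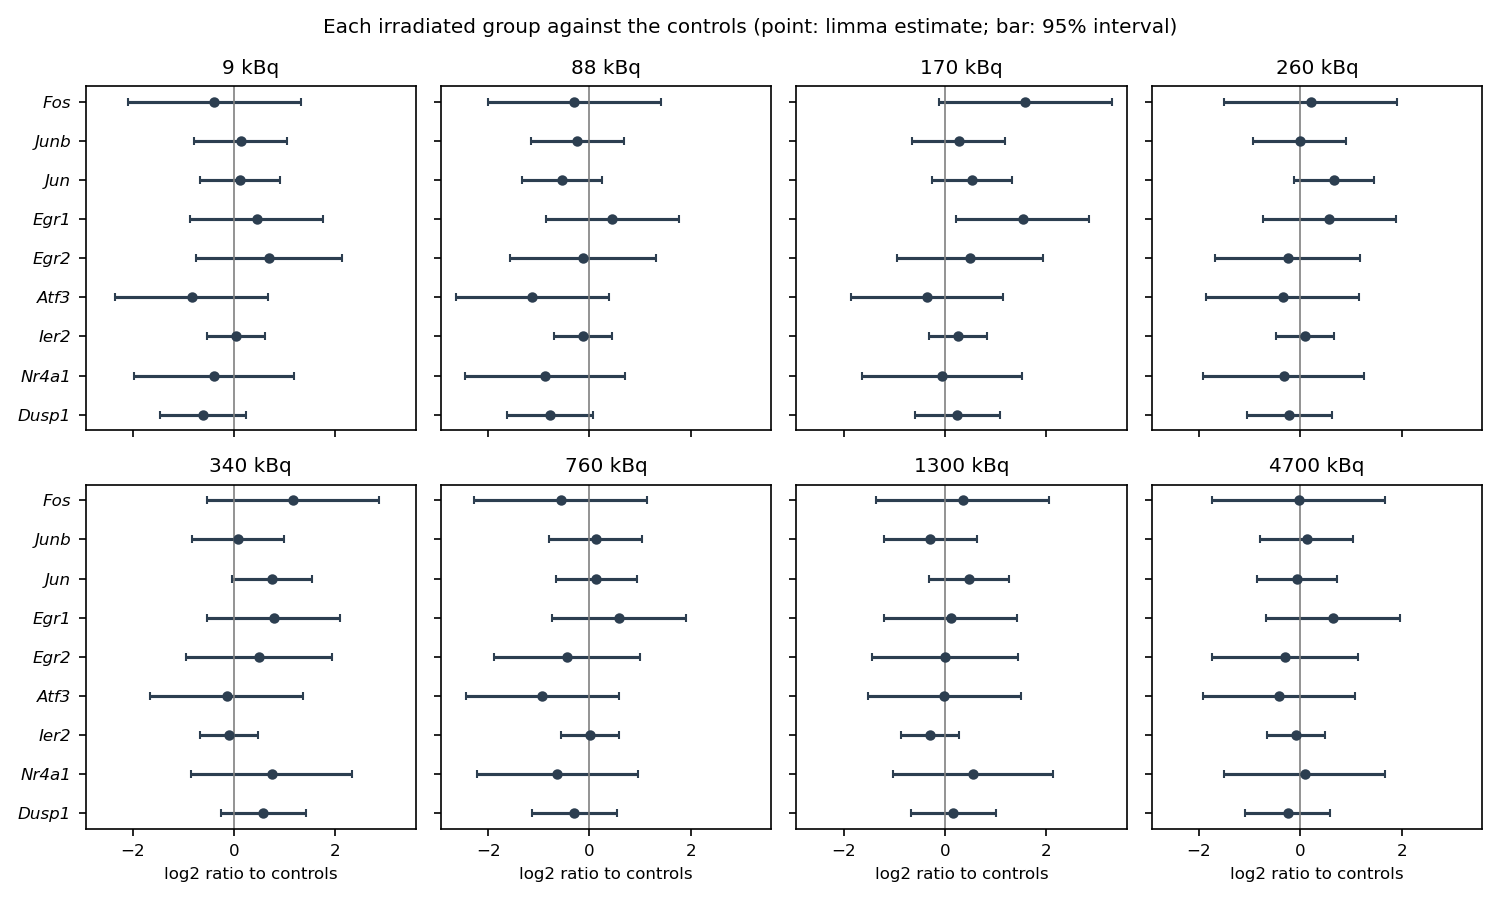
Log2 ratio of each irradiated group to the controls (horizontal axes) for the 9 measured members, 1 panel per injected activity. Points are limma estimates and bars 95% intervals, with 4 rats per group. The interval lies off 0 only for *Egr1* at 170 kBq, with a ratio of 1.53.

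None of the 9 members differed among the 9 groups in limma's F test. The adjusted p-value was 0.989 for each, and the lowest unadjusted p-values were 0.0507 for *Jun* and 0.0629 for *Dusp1*. Of all features, 0.0165% passed at an adjusted p-value under 0.05. None followed injected activity over the 32 irradiated rats either, with adjusted p-values of limma's slope between 0.577 and 0.965, against 0.0461% of all features that passed. The slope per doubling of activity was 0.02 (SE 0.09) for *Fos* and 0.09 (SE 0.08) for *Nr4a1* on the log2 scale, and the lowest was -0.10 (SE 0.07) for *Egr2*.

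The joint variation between rats was examined after the mean of each group had been subtracted. In 4 rats all 9 members lay above the group mean, rat 3 at 170 kBq, rat 4 at 260 kBq, rat 2 at 1300 kBq and rat 4 at 4700 kBq, and the mean deviation was 0.85, 1.35, 0.83 and 0.93 log2 units. In 3 rats all 9 lay below it, rat 2 at 170 kBq, rat 1 at 260 kBq and rat 1 at 4700 kBq, with mean deviations of -0.78, -0.75 and -0.37. These rats belonged to 4 irradiated groups, and in the controls between 2 and 8 members lay above the mean. *Tg* was at 4.13, 3.07, 2.13 and 6.94 in the 4 rats with all members above the mean, and 3 of these 4 were thus among the 15 arrays with low *Tg*. In the 3 rats with all members below the mean it was at 7.48, 6.84 and 7.05, all among the arrays with high *Tg*.

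**Figure D3:**
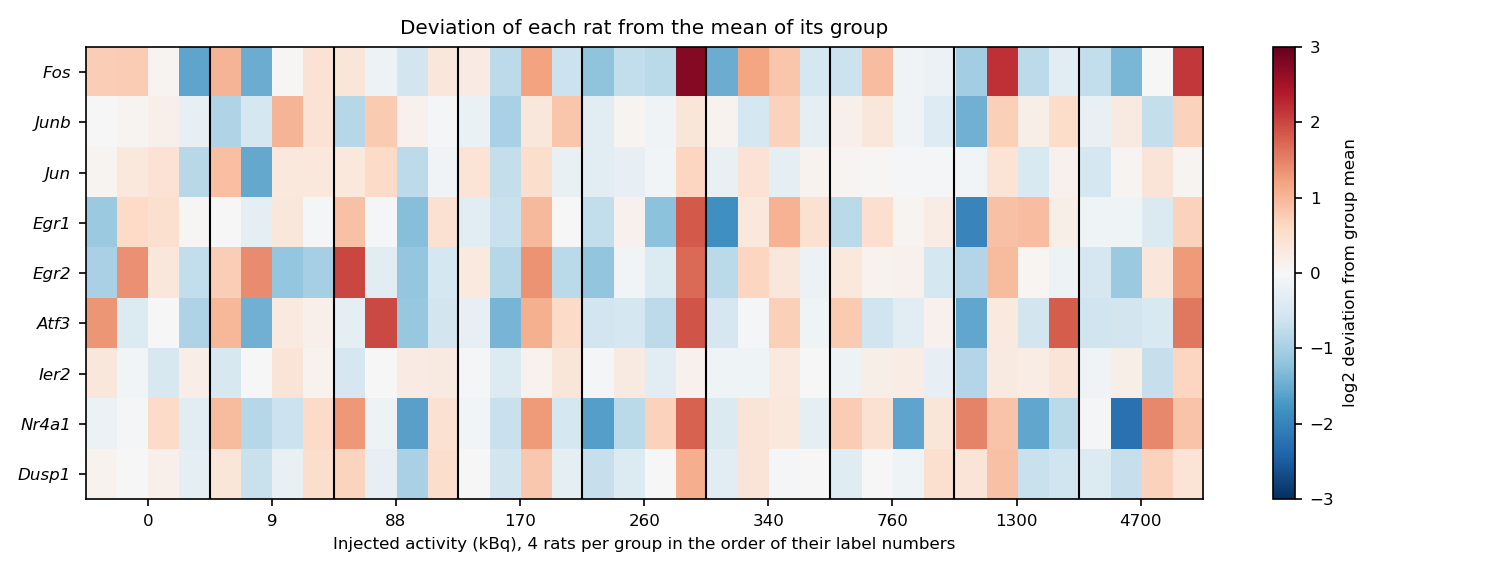
Deviation of each rat from the mean of its group in log2 units (colour, red above and blue below the mean) for the 9 measured members (rows), with 4 rats per group side by side and groups by injected activity in kBq. All 9 rows are red in 4 columns, 1 each at 170, 260, 1300 and 4700 kBq, with mean deviations of 0.83 to 1.35.

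None of the 8 other members passed the test of a slope on *Fos* between rats of a group, in which limma was fitted to all 30366 other features with 1 mean per group. Adjusted p-values were 0.0969 for *Dusp1*, 0.176 for *Jun*, *Egr1*, *Egr2*, *Atf3* and *Nr4a1*, 0.343 for *Junb* and 0.542 for *Ier2*, and 0% of all features passed with a slope above 0, the direction in which the members were counted. When features were ordered by slope over standard error, *Dusp1* was at place 2, *Jun* at 11, *Egr1* at 12, *Atf3* at 26, *Egr2* at 27 and *Nr4a1* at 31 of 30366, while *Junb* was at 5369 and *Ier2* at 8038. The slope of *Dusp1* was 0.36 (SE 0.07) log2 units per log2 unit of *Fos*. With weights for the quality of the arrays, 6 of 8 members passed, all but *Junb* and *Ier2*, and 21.2% of all features had a slope above 0 that passed. With quantile normalization *Dusp1* alone passed (limma adjusted p = 0.0326), as with median centring (0.0469) and the authors' matrix (0.035). There at most 0.00988% of all features had a slope above 0 that passed.

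The deviations of *Dusp1* and *Fos* had a Pearson r of 0.74 and a Spearman rho of 0.73 over 36 arrays (permutation within groups, p = 1e-05 for each, the smallest possible), and r was 0.65 without the 2 arrays farthest from the median of *Fos*. Within the 5 slides r was between 0.46 and 0.93, and on the 2 scan days it was 0.62 and 0.80. For *Jun*, *Egr1*, *Atf3*, *Egr2* and *Nr4a1* the r with *Fos* was 0.64, 0.63, 0.60, 0.60 and 0.59, with rho between 0.56 and 0.70 and r above 0 within all 5 slides. For *Junb* it was 0.30 (rho = 0.32, permutation p = 0.113) and for *Ier2* 0.22 (rho = 0.17, permutation p = 0.29). An r of at least 0.5 with *Fos* was reached by 6 of the 8 other members and by 1.87% of all features. These p-values are not adjusted, and 36 pairs of members were computed.

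Of the pairs of members, *Nr4a1* and *Dusp1* were the closest, with r = 0.86 and rho = 0.86 (permutation p = 1e-05 for each), and r was 0.84 without the 2 arrays farthest from the median and between 0.75 and 0.97 within slides. Of 30267 other features, 0 had a higher r with *Dusp1* than *Nr4a1* had, but 844 had a higher r with *Nr4a1* than *Dusp1* had. *Junb* and *Ier2* had r = 0.79 and rho = 0.71 (permutation p = 1e-05 and 7e-05), with r = 0.71 without the 2 farthest arrays and between 0.26 and 0.93 within slides. A higher r with *Junb* than that of *Ier2* was seen for 12 features, and a higher r with *Ier2* than that of *Junb* for 2. Between these pairs the r was low or negative: -0.17 for *Junb* and *Nr4a1* (rho = -0.08, permutation p = 0.417), -0.08 for *Junb* and *Dusp1* (rho = -0.03, permutation p = 0.723), -0.41 for *Ier2* and *Nr4a1* (rho = -0.40, permutation p = 0.055) and -0.22 for *Ier2* and *Dusp1* (rho = -0.20, permutation p = 0.307). Without the 2 arrays farthest from the median of *Junb* or *Ier2*, these r were -0.11, -0.093, -0.265 and -0.1. *Egr1* and *Egr2*, which encode factors of the same family, had r = 0.61 (rho = 0.60, permutation p = 0.00022). *Atf3* went with *Jun* (r = 0.61, rho = 0.68, permutation p = 0.00077) and with *Junb* (r = 0.56, rho = 0.55, permutation p = 0.00395), although *Jun* and *Junb* had r = 0.18 (rho = 0.20, permutation p = 0.462). Over the 36 pairs the median r was 0.39, 15 pairs reached 0.5 and 7 were below 0. The share of all features that reached 0.5 differed widely between the members, with 21.2% for *Nr4a1*, 17.7% for *Dusp1*, 12.0% for *Jun*, 5.89% for *Ier2*, 5.84% for *Junb* and 3.57% for *Egr2*, and 0.367% for *Atf3* and 0.0925% for *Egr1*.

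**Figure D4:**
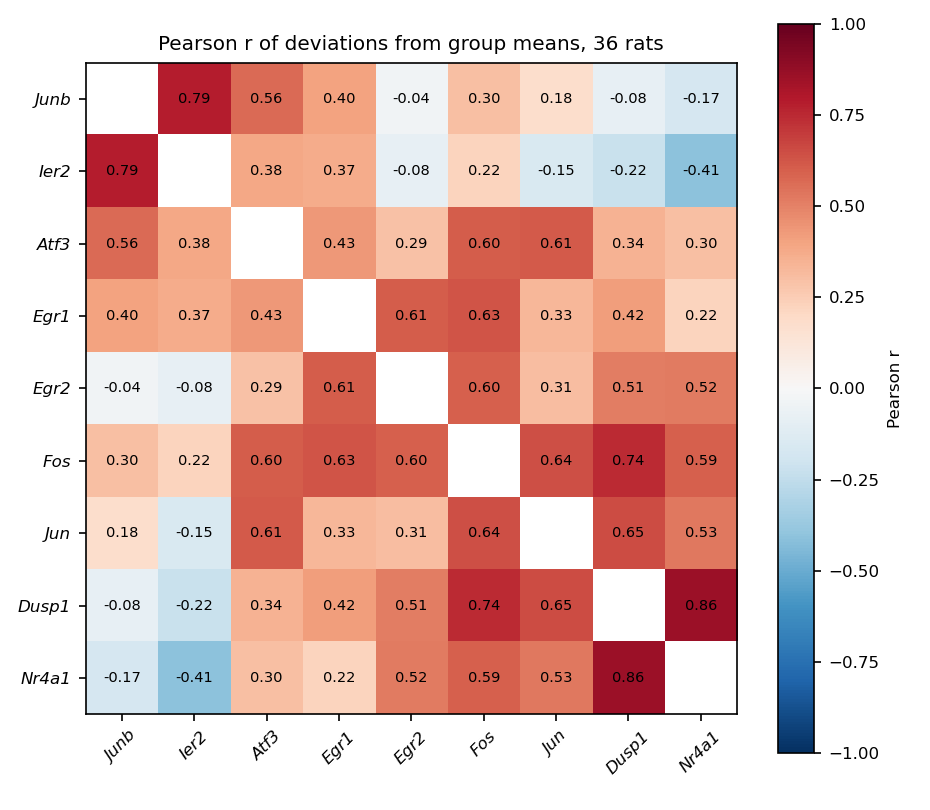
Pearson r of deviations from group means over 36 rats for each pair of the 9 measured members (colour and printed values). *Junb* and *Ier2* have an r of 0.79 and *Nr4a1* and *Dusp1* 0.86, while *Ier2* and *Nr4a1* have -0.41.

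Without the 15 arrays of low *Tg*, 19 arrays in groups of at least 2 were left, and the r was 0.67 for *Fos* and *Dusp1* (permutation p = 0.00089), 0.76 for *Nr4a1* and *Dusp1* (permutation p = 0.0119) and 0.75 for *Junb* and *Ier2* (permutation p = 0.00938). The r of *Fos* and *Egr1* fell from 0.63 to 0.33 (permutation p = 0.228). The median r over the 36 pairs was 0.41, and 14 pairs reached 0.5. No member passed the limits against the controls, the F test, the activity slope or the *Fos* slope over the 21 arrays with high *Tg*, where 6.84% of all features passed the F test and 0% the *Fos* slope.

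The number of members that passed depended on which of them was taken in place of *Fos*, and all 9 were run. With *Junb*, 2 of 8 passed at an adjusted p-value under 0.05 in limma with a slope above 0, *Ier2* (adjusted p = 0.0017) and *Atf3* (adjusted p = 0.0245), against 5.23% of all features. With *Ier2* 1 passed, *Junb*, against 6.88%. With *Egr2* 2 passed, *Fos* and *Egr1*, against 1.95%. With *Jun*, *Nr4a1* and *Dusp1* 4 passed each, against 14.3%, 26% and 21.8% of all features. With *Egr1* and *Atf3* none passed, against 0.00329% and 0%. *Nr4a1* and *Dusp1* thus varied with a large part of the array.

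Markers of other tissues moved with single members between rats of a group. Of 126 relations of 14 measures with the 9 members, 17 had a permutation p-value under 0.05 after Benjamini-Hochberg adjustment. *Nr4a1* went with the mean of the 9 fast muscle genes (r = 0.70, rho = 0.83, permutation p = 1e-05, adjusted p = 0.00126, r = 0.71 without the 2 farthest arrays, 0.50 to 0.80 within slides) and against that of the 11 thyrocyte genes (r = -0.64, rho = -0.67, permutation p = 0.0004, adjusted p = 0.0126, -0.80 to -0.59 within slides). *Dusp1* also went with the fast muscle mean (r = 0.47, rho = 0.67, permutation p = 0.0007, adjusted p = 0.0176, -0.11 to 0.81 within slides). So did *Jun* (r = 0.42, rho = 0.51, permutation p = 0.00145, adjusted p = 0.0197, 0.13 to 0.89 within slides). *Jun* (r = -0.57, rho = -0.52, permutation p = 0.00121, adjusted p = 0.0191) and *Dusp1* (r = -0.52, rho = -0.53, permutation p = 0.00576, adjusted p = 0.0427) likewise moved against the thyrocyte mean. *Jun* also went with the fibroblast mean (r = 0.57, rho = 0.54, permutation p = 0.00256, adjusted p = 0.0287, 0.14 to 0.90 within slides). Both *Nr4a1* and *Jun* moved against the parathyroid and C cell means, with an r between -0.66 and -0.51 and adjusted p-values between 0.0126 and 0.0427. The fast muscle gene *Tnni2*, which encodes a fast skeletal troponin, was between -1.98 and 8.50. The r of *Fos* with the fast muscle mean was 0.28 (rho = 0.44, permutation p = 0.0275), and this did not pass after adjustment.

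*Junb* went with the mean of 7 squamous epithelium genes (r = 0.60, rho = 0.64, permutation p = 0.00115, adjusted p = 0.0191, r = 0.52 without the 2 farthest arrays, 0.57 to 0.74 within slides). Among these, *Cnfn*, the cornifelin gene, was between -3.57 and 6.47. *Egr2* went with the mean of 7 lymphoid genes (r = 0.63, rho = 0.49, permutation p = 0.00156, adjusted p = 0.0197, r = 0.48 without the 2 farthest arrays, 0.58 to 0.77 within slides), among which *Cd3d*, a subunit of the T cell receptor complex, was between -3.78 and 5.75. This relation leaned on 3 arrays, rat 2 at 9 kBq, rat 1 at 88 kBq and rat 2 of the controls, with a summed lymphoid level of 6.42, 6.36 and 5.81, while no other array was above -0.26. *Egr2* was at -3.14, -3.36 and -3.86 in these rats, the highest of each group. Over the other 33 arrays the r was 0.28 (rho = 0.25, permutation p = 0.2). *Junb* went with the macrophage mean as well (r = 0.47, rho = 0.52, permutation p = 0.00566, adjusted p = 0.0427). *Nr4a1* also moved against the 75th percentile of the array (r = -0.54, rho = -0.57, permutation p = 0.00273, adjusted p = 0.0287), and *Dusp1* likewise (r = -0.52, rho = -0.51, permutation p = 0.00439, adjusted p = 0.0425). That percentile is subtracted from every level, so a negative r with it is partly built in. The last of the 17 relations was that of *Nr4a1* with the percentage of features well above background (r = -0.43, rho = -0.59, permutation p = 0.00117, adjusted p = 0.0191). Over the 19 arrays with high *Tg* in groups of at least 2, the r of *Junb* was -0.01 with the squamous epithelium mean (permutation p = 0.953) and 0.21 with the macrophage mean (permutation p = 0.505), and that of *Jun* with the fibroblast mean was 0.07 (permutation p = 0.769), so these relations were not found over these 19 arrays. For *Nr4a1* the r was 0.77 with the fast muscle mean (permutation p = 0.00106) and -0.66 with the thyrocyte mean (permutation p = 0.0363). For *Egr2* with the lymphoid mean it was 0.80 (permutation p = 0.0325), and 2 of the 3 arrays with a high lymphoid level, rat 1 at 88 kBq and rat 2 of the controls, were among the 19. *Jun* had an r of -0.46 with the thyrocyte mean (permutation p = 0.0212) and 0.24 with the fast muscle mean (permutation p = 0.145), and *Dusp1* of -0.37 (permutation p = 0.338) and 0.47 (permutation p = 0.158). With the parathyroid and C cell means the r was -0.66 and -0.64 for *Nr4a1* (permutation p = 0.0232 and 0.051) and -0.32 and -0.31 for *Jun* (permutation p = 0.274 and 0.203). These p-values were not adjusted, and the alternative was chosen after the data were seen.

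Several marker lists split the arrays into separate sets, and the relations were therefore also computed on each side of the widest gap in the summed level of the list, after the data had been seen and with no adjustment of the p-values. Such a split leaves each set with only part of the range of the list, which by itself can weaken r. The 15 arrays with a low and the 21 with a high thyrocyte level are those with low and high *Tg*, and within the low set, where 10 arrays were in groups of at least 2, the r with the thyrocyte mean was 0.16 for *Nr4a1* (permutation p = 0.828), 0.51 for *Jun* (permutation p = 0.34) and 0.66 for *Dusp1* (permutation p = 0.223). Within the high set, where 19 arrays were in groups of at least 2, the r was -0.66 for *Nr4a1*, -0.46 for *Jun* and -0.37 for *Dusp1*, as given above. The C cell level split the arrays into 18 and 18. The r of *Nr4a1* with the C cell mean was -0.09 in the low set (permutation p = 0.754) and -0.27 in the high set (permutation p = 0.426), and that of *Jun* was 0.67 (permutation p = 0.0209) and 0.18 (permutation p = 0.507). The inverse relations with the C cell mean over all arrays were thus not found within the sets split by C cell level. With less of the range in each set, these values do not decide whether the relations hold there. With the parathyroid mean, *Nr4a1* had an r of 0.07 in the low set (permutation p = 0.874) and -0.64 in the high set (permutation p = 0.0111), and *Jun* of 0.02 (permutation p = 0.937) and -0.34 (permutation p = 0.321). *Junb* with the squamous epithelium mean had an r of 0.18 (permutation p = 0.589) and 0.34 (permutation p = 0.562). A single array, rat 3 at 760 kBq, lay apart in fast muscle level, and without it the r with the fast muscle mean was 0.79 for *Nr4a1* (permutation p = 1e-05), 0.72 for *Dusp1* (permutation p = 2e-05) and 0.67 for *Jun* (permutation p = 0.00265). The fibroblast and macrophage levels had no wide gap, and without the lowest array of each, the r was 0.64 for *Jun* with the fibroblast mean (permutation p = 0.00054) and 0.56 for *Junb* with the macrophage mean (permutation p = 0.00075).

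The mean of the 9 members, as a description, had an r of 0.48 with the fibroblast mean, 0.45 with the macrophage, 0.41 with the slow muscle and 0.37 with the fast muscle mean, and of -0.45 with the thyrocyte, -0.44 with the parathyroid and -0.43 with the C cell mean. With the other 5 marker lists it was between -0.13 and 0.25. The part of other tissues and of array brightness in the joint variation was not tested beyond these values and a fit with tissue covariates. These were the thyrocyte mean, the average of the slow and fast muscle means, and the percentage of features well above background. The other marker lists were not in this fit. In it the slope on *Fos* was 0.30 for *Nr4a1*, in place of 0.55, 0.20 for *Jun*, in place of 0.29, 0.29 for *Dusp1*, in place of 0.36, 0.48 for *Atf3*, in place of 0.53, and 0.15 for *Ier2*, in place of 0.07. It was 0.51 for *Egr1*, 0.54 for *Egr2* and 0.15 for *Junb*, in place of 0.48, 0.51 and 0.16. The limma adjusted p-value of each of these slopes was 0.988, and 0% of all features had a slope above 0 that passed. Over the arrays with high *Tg* the slope of *Egr1* was 0.24.

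**Figure D5:**
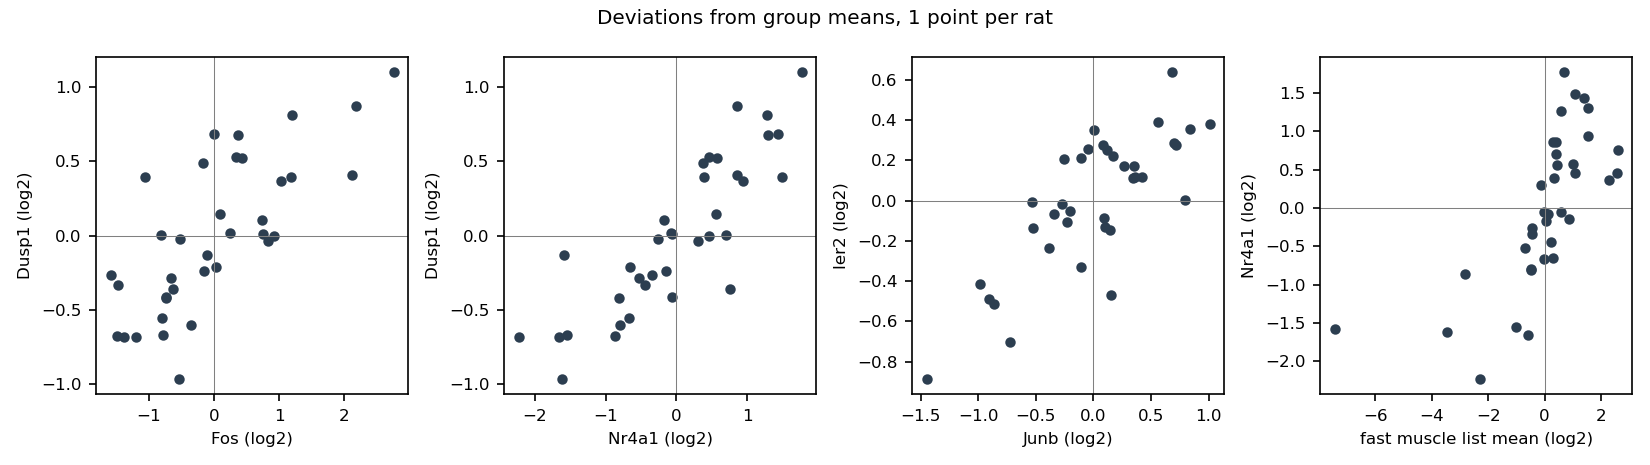
Deviations from group means in log2 units, 1 point per rat, for *Dusp1* against *Fos*, *Dusp1* against *Nr4a1*, *Ier2* against *Junb* and *Nr4a1* against the mean of the 9 fast muscle genes. The r is 0.74, 0.86, 0.79 and 0.70 over 36 rats.

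The genes outside the members whose deviations were most like those of *Fos*, among features well above background on all arrays, were *Ccn1* (r = 0.71), *Adamts1* (0.66), *Atp2a2* (0.65), *Ddit3* (0.65), *Calhm5* (0.64), *Apln* (0.63), *Gsc* (0.63), *Lmod2* (0.63), *Fmc1* (0.62) and *Hsd11b1* (0.61), as a description over 36 arrays. *Ccn1* encodes a matricellular protein and is itself an immediate early gene, and *Ddit3* encodes the stress factor CHOP. *Atp2a2* encodes a sarcoplasmic reticulum calcium pump and *Lmod2* a leiomodin of striated muscle. Of the 51 other immediate early genes with a probe, 3 reached an r of 0.5 with *Fos*, 9 with *Junb* and 7 with *Nr4a1*, that is 5.88%, 17.6% and 13.7%, against 1.87%, 5.84% and 21.2% of all features. An r of -0.5 or lower was seen in 0 of the 51 with *Fos* and *Junb*, against 1.15% and 4.45% of all features. With *Nr4a1* it was seen in 16, that is 31.4%, against 17.2% of all features. The highest with *Fos* were *Ccn1*, *Errfi1* (0.57), *Nr4a3* (0.57), *Gadd45g* (0.48) and *Cebpb* (0.45). The lowest were *Nfkbia* (-0.44), *Mcl1* (-0.43) and *Trib1* (-0.41). The median r over the 51 genes was 0.04 with *Fos*, 0.22 with *Junb* and -0.02 with *Nr4a1*, and that over the 8 other members with *Fos* was 0.60.

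None of these 51 genes, of 19 upstream kinases and factors, of 12 glucocorticoid-responsive genes or of 9 heat shock chaperones passed the limits in any comparison with the controls. None passed the test of a slope on *Fos* either. Of all features, 0% passed these limits in any comparison and 0% the *Fos* slope, so these counts say little about the lists. The median r with *Fos* was 0.29 for the upstream kinases and factors, 0.33 for the glucocorticoid-responsive genes other than the members and 0.35 for the chaperones, against 0.03 for all features. With *Nr4a1* the medians were 0.62, 0.57 and 0.59, against 0.14, but 1 of 19, 2 of 11 and 3 of 9 of these genes had an r of -0.5 or lower. With *Junb* the medians were -0.16, -0.18 and 0.08, against -0.07. *Cebpd*, which encodes a C/EBP factor induced by glucocorticoids and stands in 2 of the lists, had log2 ratios between -1.48 (SE 0.35, limma adjusted p = 1, at 760 kBq) and -0.73 in 7 of the 8 groups at an unadjusted p-value under 0.05. These comparisons share the 4 controls, and *Cebpd* was singled out after its values were seen.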

How the data were processed

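The authors deposited the scanner's intensity values, 1 array per rat, from which Feature Extraction had subtracted the background. A matrix of intensities deposited by the authors, quantile normalized between arrays, was an alternative. The labels name Partek for processing.

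Control and outlier spots (331 to 1365 per array) were left out, the 75th percentile of log2 intensity was subtracted, and spots of the same probe were averaged. Of 30367 features, 17998 were matched through accessions to RefSeq genes. All features were fitted with limma 3.58.1 in R 4.3.3, with 1 mean per group, and p-values were adjusted by Benjamini-Hochberg. Correlations of deviations from group means used 100000 permutations within groups (numpy 2.4.6). Precision is limited by the number of arrays.

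Members, lists and tests were chosen with earlier results of these data known. The named genes are the members, the 10 genes most like *Fos*, the 5 highest and 3 lowest of the other immediate early genes, and listed genes past the limits, of which there were none. *Tg*, *Tnni2*, *Cnfn*, *Cd3d*, *Cebpd* and the limit of 1 on log2 ratios were chosen after the values were seen. After the values were seen, *Fos* was replaced by each other member except *Egr1*, which had been planned, and arrays of low *Tg* (log2 level under 5) were left out. The fit was tested on simulated data. A version of this test with changes of a single size had not reached the recovery it required, and it was replaced by one that gives recovery per size. In a simulated comparison of 4700 kBq with the controls, 4% of changes of 2 SD were recovered, 34% of 3 SD, 74% of 4 SD and 100% of 5 SD. For slopes on *Fos*, 24% were recovered at 0.5 SD, 86% at 1 SD and 100% at 1.5 SD.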

Additional observations from a re-analysis of the deposited data

Results flagged for a closer look

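In 5 of the 81 sets of 4 rats (9 members in 9 groups), 1 rat lay far from the other 3 by Dixon's test, and chance gives about 1 in 20. *Fos* in rat 4 at 260 kBq was at 0.08. *Atf3* in the same rat was at 1.14. *Atf3* in rat 4 at 4700 kBq was at 0.77. Both of these rats had all 9 members above the group mean. *Ier2* in rat 1 at 1300 kBq was at 0.74, on an array with low *Tg*. *Nr4a1* in rat 3 at 760 kBq was at -0.52, the array with the lowest summed fast muscle level, 0.37.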

How the results depend on the processing

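The count of members past the limits against the controls was 0 under all 49 alternatives, and so was that of members that followed injected activity under all 43. In the main fit 0% of all features passed these limits in any comparison, and 0.0461% followed activity. A count that stays at 0 therefore says little about the members. The count that differed among the groups was 0 under 46 alternatives, and 1 with array weights (*Jun*, limma adjusted p = 0.0228), where 16.5% of all features passed. The count that went with *Fos* was 0 under 44 of 55 alternatives. It was 1 with quantile normalization, median centring and the authors' matrix, each time *Dusp1*, against 0.00659%, 0.00988% and 0.00659% of all features, and 6 with array weights, against 21.2%. With each rat left out in turn it was between 0 and 1, with 1 only without rat 1 of the 1300 kBq group (0.00329% of all features), and the other 3 counts were between 0 and 0. With another member in place of *Fos*, which apart from *Egr1* was added after the correlations had been seen, it was 2 for *Junb*, 4 for *Jun*, 0 for *Egr1*, 2 for *Egr2*, 0 for *Atf3*, 1 for *Ier2*, 4 for *Nr4a1* and 4 for *Dusp1*. The cause of these changes was not tested. With the replicate block, the rat number as a term, all 4 counts were 0. Deviations of rats with the same number had a median r of -0.01 over 144 pairs, against -0.03 for other numbers, so the numbers do not pair the rats. The ratios followed through the alternatives were those of *Fos* at 170 and 340 kBq, *Egr1* at 170 kBq and *Atf3* at 88 kBq. None of them changed sign, and no slope on *Fos* did. The slope of *Ier2* on *Fos* was between 0.014, with the authors' matrix, and 0.145, with tissue covariates. That of *Egr2* was between 0.328, with normexp background correction, and 0.659, over the arrays with high *Tg*. The ratio of *Fos* at 170 kBq was between 1.06 and 1.85, and that of *Egr1* between 1.17 and 1.75. That of *Fos* at 340 kBq was between 0.63, without rat 4 of the controls, and 1.66, without rat 1 of the group, and it was 0.77 without rat 2, 0.65 with tissue covariates and 0.66 over the arrays with high *Tg*. That of *Atf3* at 88 kBq was between -1.95, with array weights, and -0.68, without rat 1 of the controls, and it was -0.74 without rat 3 of the group and -1.79 without rat 2. A mean of all probes of a gene could not be run, since every member had 1 probe.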
